A study of Drosophila melanogaster with 20 samples.

Results

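A set of 71 genes had less RNA in male flies mutant for Mettl3, for Mettl14 and for Hakai than in yw males. The members were taken from the table of FPKM values (fragments mapped to a transcript, scaled to its length and to the size of the library), which holds 17276 genes. Of these, 13079 had a mean of at least 1 FPKM over the 8 male input libraries and are called the genes tested below. Members were selected on the measured male levels: a gene became a member when its group mean of log2(FPKM + 1) was at least 0.7 below that of yw males in each of the 3 mutants. This was true of 82 genes (0.627% of the genes tested), and 11 of them were left out by GO term or name. The terms and names mark serine-type endopeptidases, structural cuticle constituents, peptidoglycan recognition proteins, attacins, cytochromes P450 and odorant-binding proteins. Cuticle genes were left out by a single general term, so TwdlP, annotated with a separate term for chitin-based cuticle, stayed a member. The levels in the mutants relative to yw males therefore chose the members and are given as a description, and no test of them is reported for the members on their own.

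The libraries came from whole adult flies 1 to 2 days old, kept at 25 °C on cornmeal food. The male groups were yw, Mettl3SK2/Df (a mutant allele over a deficiency), Mettl14SK1 and Hakai4 (a CRISPR-induced allele, named HakaiSH4 in the study's methods), and the fifth group was yw females. Each group had 2 input libraries of fragmented poly(A) RNA and 2 libraries of the same kind of RNA immunoprecipitated with an antibody against N6-methyladenosine (m6A). Nothing in the labels says whether the 2 libraries of a group came from separate cultures, so the spread between them may be technical. Each mutant is 1 line, and effects of the mutation and of the rest of the line's genome cannot be told apart.

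Mettl3 is the catalytic subunit of the m6A methyltransferase, Mettl14 is its RNA-binding partner, and Hakai is a RING finger protein that belongs to the associated writer complex. The mark is laid on RNA in the nucleus, and in Drosophila it is known for its part in splicing of the sex determination gene Sxl and in neuronal function. Reader proteins of the YTH family bind the mark, and a transcript can be spliced, exported or degraded differently once they are bound.

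The mutated genes were lowest in their own mutants. Mettl3 had 2.43 and 2.10 FPKM in Mettl3 males and 5.17 to 7.02 in the other male libraries. Mettl14 had 1.77 and 2.02 FPKM in Mettl14 males and at least 3.83 elsewhere among males, and Hakai had 0.767 and 1.21 in Hakai males and at least 1.99 elsewhere. The white gene differed between the lines as well, with 0.638 and 0.650 FPKM in yw males and 0.905 to 2.72 in the mutants. The yellow gene had 16.7 and 17.9 FPKM in Mettl14 males and 5.52 to 7.78 in the other male libraries. Across genes, the log2 values of 2 libraries of a group correlated with r between 0.977 and 0.994. In whole flies, fewer cells of a type and less RNA per cell cannot be told apart. None of the 18 tested testis markers was called different from yw males in any mutant, and their summed level was 4598 to 5293 FPKM in yw males and 4178 to 5259 in the mutants. Accessory gland markers summed to 3718 and 6458 FPKM in yw males, 9868 and 9961 in Mettl3, 8108 and 9652 in Mettl14 and 5044 and 5904 in Hakai. Of 14 tested, 2, 3 and 0 were called higher in Mettl3, Mettl14 and Hakai, and none lower. Fat body markers summed to 401 and 486 FPKM in yw males and 680 to 1316 in the mutants. Of 10 tested, 5, 2 and 6 were called higher in Mettl3, Mettl14 and Hakai, and none lower. Flight muscle markers summed to 19685 and 23641 FPKM in yw males, 12964 and 13022 in Mettl3, 15284 and 17819 in Mettl14 and 18922 and 21475 in Hakai. Of 13 tested, 1 was called lower in Mettl3, and no other call was made. Midgut markers summed to 958 and 1289 FPKM in yw males, 913 and 924 in Mettl3, 1841 and 3428 in Mettl14 and 572 and 938 in Hakai. Of 14 tested, 1, 0 and 3 were called lower and 1, 4 and 1 higher in Mettl3, Mettl14 and Hakai. The 7 ovary and female markers summed to 7.60 and 9.59 FPKM in yw males and 10.91 and 10.97 in Mettl3. They summed to 43.7 and 112 in Mettl14 and 54.6 and 68.5 in Hakai. Of the 4 tested, 0, 1 and 1 were called higher, and none lower. The part of these shifts in the levels below was not tested.

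The 71 members comprised 43 protein-coding genes, 18 long noncoding RNAs, 3 antisense RNAs, 1 pseudogene, 1 snoRNA, and 3 mRNAs and 2 tRNAs of the mitochondrial genome. All 71 were matched to the RefSeq gene table, and all had the same start and end there. Their median level in yw males was 9.86 FPKM, next to 9.89 FPKM for all genes tested, with a range from 2.15 to 1441 FPKM. They lay on every major chromosome arm, with 14 on 2L, 12 on 2R, 17 on 3L, 18 on 3R, 4 on X and 1 on chromosome 4. The X chromosome held 5.63% of the members and 15.2% of the genes tested, and the mitochondrial genome held 7.04% and 0.184%.

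The median log2 difference from yw males was -1.33 in Mettl3, -1.58 in Mettl14 and -1.33 in Hakai, while the medians over all genes tested were 0.03, 0.11 and 0.03. In 32 members the difference was at least 1 on the log2 scale in all mutants. The lowest mean was in Mettl3 for 26 members, in Mettl14 for 23 and in Hakai for 22. In 57 members all 6 mutant libraries lay below both yw male libraries (4.63% of genes tested), and in 14 the groups overlapped. Nothing is read from these counts, since the same contrasts chose the members. For the gene lists and for the pairs of mutants below, a call is a Benjamini-Hochberg adjusted p under 0.05 in limma with a difference of at least 2-fold. Counts of calls on a gene list include any members on it. Calls below yw males made up 1.00% of the genes tested for Mettl3, 1.06% for Mettl14 and 1.45% for Hakai.

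**Figure D1:**
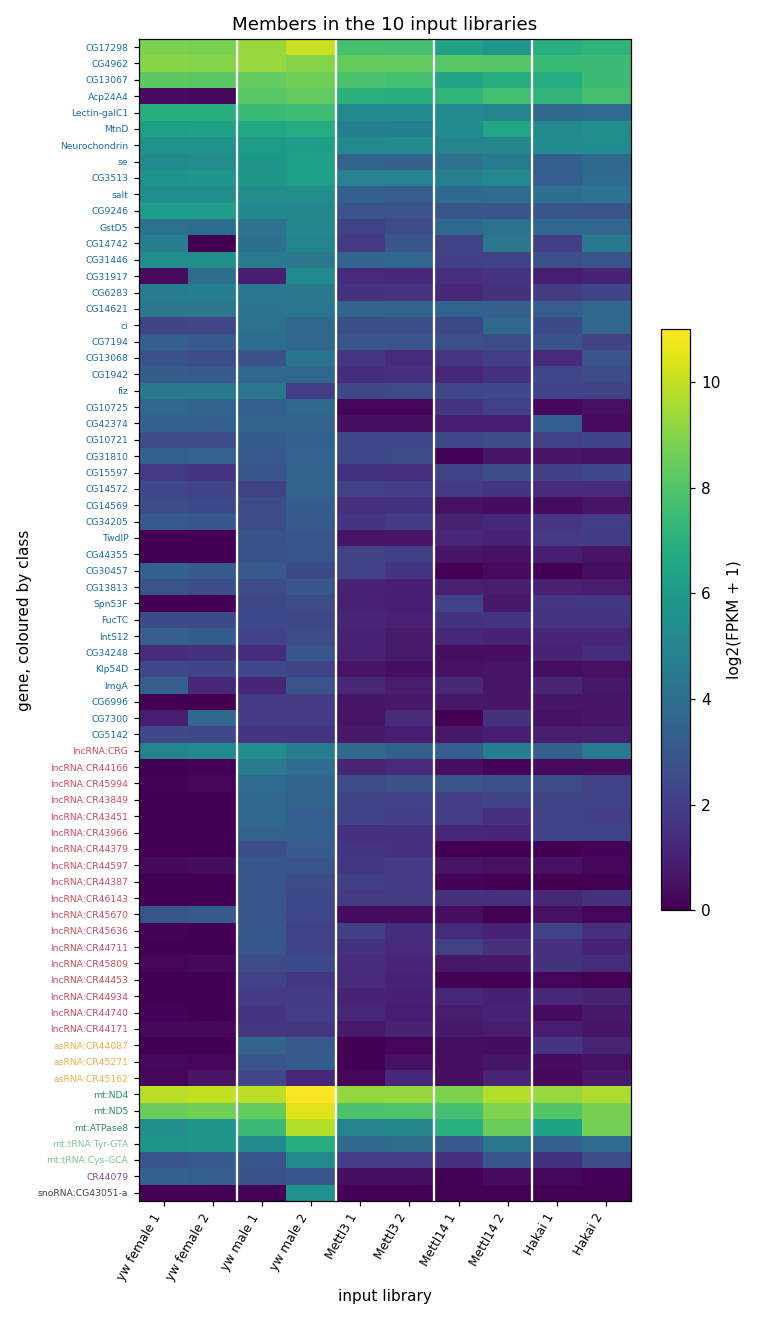
Level of each of the 71 members, as log2(FPKM + 1), in the 10 input libraries (columns, 2 per group); gene names are coloured by class and ordered within a class by level in yw males. Most rows are brighter in the yw male columns than in the 6 mutant columns, and most long noncoding RNA rows are dark in the yw female columns.

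Several protein-coding members had nearly the same low level in every mutant. CG9246, the fly counterpart of the ribosome biogenesis factor Noc2, had 34.4 and 33.0 FPKM in yw males, 5.98 and 6.02 in Mettl3, 6.73 and 6.35 in Mettl14, and 6.77 and 6.37 in Hakai. The 6 mutant libraries lay close together, with log2 differences from yw of -2.31, -2.20 and -2.20. Klp54D, a kinesin motor gene, had 4.41 and 3.65 FPKM in yw males and between 0.324 and 0.478 in the 6 mutant libraries. CG13813 behaved alike, with 4.87 and 6.98 FPKM in yw males and 0.843 to 1.06 in the mutants. CG6996, annotated with chitin binding, had 2.90 and 2.87 FPKM in yw males and 0.553 to 0.654 in the mutants. For all of these the groups did not overlap. IntS12, a subunit of the Integrator complex that processes small nuclear RNAs, had 3.70 and 4.75 FPKM in yw males and 0.746 to 1.32 in the mutants, and CG5142, the counterpart of the ciliary transport protein Ttc30, had 2.17 and 2.13 against 0.645 to 0.916. In 16 of the 71 members the 6 mutant libraries spanned at most 0.5 on the log2 scale, as they did in 45.4% of the genes tested.

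Several members with high levels in yw males differed in size of fall between mutants. Lectin-galC1, a galactose-specific C-type lectin that agglutinates bacteria, had 169 and 194 FPKM in yw males, 36.6 and 38.8 in Mettl3, 36.4 and 32.3 in Mettl14, and 12.8 and 13.6 in Hakai. It was lower in every mutant library, and lowest in both Hakai libraries. CG17298 had 626 and 1086 FPKM in yw males, 225 and 212 in Mettl3, 79.4 and 53.7 in Mettl14, and 119 and 145 in Hakai. CG4962 had 639 and 503 FPKM in yw males, 336 and 338 in Mettl3, 283 and 272 in Mettl14, and 180 and 186 in Hakai. Both were lower in every mutant library, but by different amounts in different mutants. The protease inhibitor gene CG3513 had 55.8 and 74.9 FPKM in yw males, 28.6 and 28.1 in Mettl3, 27.2 and 37.2 in Mettl14, and 8.65 and 13.2 in Hakai. Its neighbour Acp24A4, which encodes an accessory gland peptide, had 280 and 326 FPKM in yw males and 118 to 223 in the mutants. The log2 differences from yw in Mettl3, Mettl14 and Hakai were -1.16, -0.9996 and -2.49 for CG3513. For Acp24A4 they were -1.29, -0.78 and -0.73. The order of these genes in Mettl3 rests on a small gap, and differences between the genes were not tested. Acp24A4 was called in no pair of mutants. Female levels of Acp24A4 were 0.293 and 0.180 FPKM. The level of the accessory gland marker list is given above.

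Members on the lists of pigment genes and metallothioneins are given next, with 2 others of high level. The gene se, which encodes the enzyme that makes pyrimidodiazepine for the red eye pigments, had 55.4 and 76.0 FPKM in yw males, 10.3 and 9.49 in Mettl3, 16.5 and 21.9 in Mettl14, and 8.97 and 12.5 in Hakai. It was the only member on the list of 16 tested eye pigment genes. Of these 16, se included, 1, 1 and 2 were called lower and 1, 0 and 0 higher in Mettl3, Mettl14 and Hakai. MtnD, a metallothionein, had 92.6 and 109 FPKM in yw males, 25.4 and 26.0 in Mettl3, 40.1 and 86.4 in Mettl14, and 34.9 and 42.5 in Hakai. MtnD was on a list of 6 genes, the metallothioneins and their transcription factor MTF-1, with median log2 differences of -0.33, -0.63 and -0.86 in Mettl3, Mettl14 and Hakai. Of these 6, MtnD included, 2, 0 and 1 were called lower and 1, 0 and 1 higher. MtnA was the one called higher, with 334 and 232 FPKM in yw males, 1150 and 1141 in Mettl3, and 917 and 1025 in Hakai. CG6283, annotated with lipid metabolism, had 18.8 and 20.3 FPKM in yw males, 2.02 and 2.28 in Mettl3, 1.38 and 1.93 in Mettl14, and 2.78 and 3.95 in Hakai. The transporter gene salt had 42.3 and 42.2 FPKM in yw males, 9.29 and 8.96 in Mettl3, 12.7 and 13.3 in Mettl14, and 15.4 and 17.4 in Hakai. In CG6283 and salt no mutant library approached the yw males. CG42374 had 10.7 and 10.4 FPKM in yw males, 0.372 and 0.317 in Mettl3, 0.875 and 0.788 in Mettl14, and 8.67 and 0.262 in Hakai, so the Hakai libraries disagreed.

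The largest mean difference belonged to a noncoding RNA. lncRNA:CR44166 had 21.3 and 14.9 FPKM in yw males, 1.29 and 1.58 in Mettl3, 0.365 and 0.0741 in Mettl14, and 0.245 and 0.288 in Hakai. Its mean log2 difference over the mutants was -3.60. asRNA:CR45271 had 6.58 and 8.48 FPKM in yw males and 0 to 0.564 in the mutants. lncRNA:CR45670 had 6.66 and 4.12 FPKM in yw males and 0.056 to 0.408 in the mutants, and the pseudogene CR44079 had 5.62 and 6.53 against 0.060 to 0.380. These RNAs were near the lower end of the scale in all 6 mutant libraries. Long noncoding RNA genes as a class did not share the direction of the members. There were 853 tested, which here include CR44079 and the 18 long noncoding members. Of these, 23, 35 and 52 were called lower and 100, 78 and 64 higher in Mettl3, Mettl14 and Hakai. Their median log2 differences were 0.28, 0.14 and -0.01.

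For some members the difference rested on 1 yw male library. Replicate 2 exceeded replicate 1 by more than 2-fold in 11 members (2.29% of genes tested), and replicate 1 exceeded replicate 2 in 3 (1.98%). The snoRNA snoRNA:CG43051-a was listed at 0.0538 and 49.7 FPKM in yw males and at 0.0412 to 0.059 in the mutants, so only 1 of the 10 libraries held an appreciable level. CG31917 had 0.876 and 38.4 FPKM in yw males and 0.774 to 2.18 in the mutants. In fiz, an oxidoreductase gene, the order was turned round, with 19.0 and 2.98 FPKM in yw males and 3.65 to 4.65 in the mutants. All 5 mitochondrial members were among the 11. mt:ND4, a complex I gene with the highest yw male level of all members, had 945 and 1938 FPKM in yw males, 586 and 615 in Mettl3, 448 and 851 in Mettl14, and 631 and 808 in Hakai, without overlap. mt:ATPase8, which encodes a subunit of ATP synthase, had 186 and 885 FPKM in yw males, 29 and 32.3 in Mettl3, 128 and 356 in Mettl14, and 81.3 and 413 in Hakai. mt:ND5, also of complex I, had 335 and 1398 FPKM in yw males, 234 and 249 in Mettl3, 217 and 469 in Mettl14, and 267 and 426 in Hakai. mt:ATPase8 and mt:ND5 overlapped between yw males and mutants, and in both the replicate 2 libraries of yw, Mettl14 and Hakai were the higher ones. Without yw male replicate 2, the rule again took 71 genes, but 20 of the members were lost, among them snoRNA:CG43051-a, CG31917, MtnD, GstD5 and 4 of the 5 mitochondrial genes. Without yw male replicate 1 it took 115 genes and lost 12 of the members, among them fiz and ci.

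**Figure D2:**
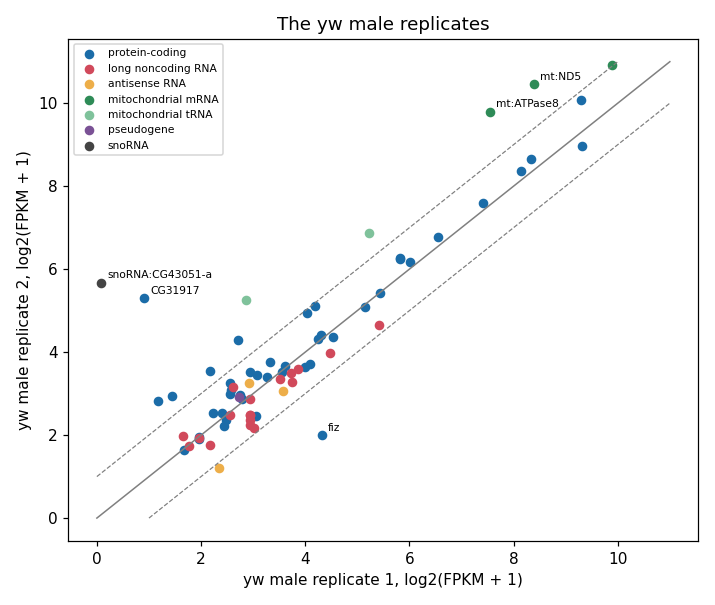
The 71 members in yw male replicate 1 (horizontal) and replicate 2 (vertical), as log2(FPKM + 1), coloured by class; the solid line marks equal values and the dashed lines a distance of 1 log2 unit. The snoRNA, CG31917, mt:ATPase8 and mt:ND5 lie far above the line, mt:ND4 lies at the upper dashed line and fiz lies far below.

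Just inside the threshold, the smallest of the differences was -0.70 in Spn53F, CG13067 and CG14621. Just outside it were Glut4EF with -0.68, lncRNA:CR45357 with -0.68 and CG34196 with -0.67.

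The rule did not use the differences among the mutants directly, and these were tested. It did use the level of each mutant, which had to lie at least 0.7 below yw males. The shares of genes tested, given in brackets, are therefore not a like-for-like background for the members. The same limit holds for the counts by chromosome below. Of the members, 51 were called in none of the 3 pairs of mutants and 20 in at least 1. The share of genes tested with a call in at least 1 pair was not measured, so these counts are not read as a trait of the members. Between Mettl3 and Mettl14, 14 members were called (4.02% of genes tested), 12 of them higher in Mettl3 (1.76%) and 2 lower (2.26%). Between Hakai and Mettl14, 5 were called (2.84%), 2 higher (0.925%) and 3 lower (1.91%) in Hakai. Between Hakai and Mettl3, 13 were called (3.93%), 3 higher (1.59%) and 10 lower (2.34%) in Hakai. Leaving out a Mettl3 library gave 7 or 9 calls between Mettl3 and Mettl14 and 7 between Hakai and Mettl3, leaving out Mettl14 replicate 2 gave 9 for the former pair, and leaving out Hakai replicate 1 gave 3 between Hakai and Mettl14. The pairs share libraries, so their counts are not independent of each other.

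In 8 members, Mettl3 males were called higher than both Mettl14 and Hakai males, while lying below yw males as the rule required. How many genes tested had both calls was not measured, so nothing is read from the count of 8. They were the protein-coding genes CG14569, CG30457, CG31810 and CG44355 and the long noncoding RNAs CR44379, CR44387, CR44453 and CR44597. CG31810 had 7.39 and 9.99 FPKM in yw males, 4.29 and 4.74 in Mettl3, 0.0908 and 0.595 in Mettl14, and 0.484 and 0.436 in Hakai. Its Mettl3 libraries lay between the others without overlap, and the log2 difference from Mettl14 was 2.06 (SE 0.21; limma, adjusted p = 0.00269). lncRNA:CR44379 had 5.13 and 7.91 FPKM in yw males and 2.14 and 2.02 in Mettl3, and it was listed at 0 in both Mettl14 libraries and at 0 and 0.0754 in Hakai. lncRNA:CR44387 had 6.64 and 4.64 FPKM in yw males, 3.27 and 2.77 in Mettl3, 0.082 and 0.00298 in Mettl14, and 0 and 0.038 in Hakai. For lncRNA:CR44387 the log2 difference of Mettl3 from Mettl14 was 1.95 (SE 0.16; limma, adjusted p = 0.00142). These RNAs were near 0 in Mettl14 and Hakai males and at a higher level in Mettl3 males. That the Mettl3 mean lay below yw males was set by the rule. CG30457 lies in the same run of neighbours on 2R as lncRNA:CR44387, and it had 7.34 and 4.53 FPKM in yw males, 3.38 and 2.28 in Mettl3, 0 and 0.239 in Mettl14, and 0 and 0.339 in Hakai.

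**Figure D3:**
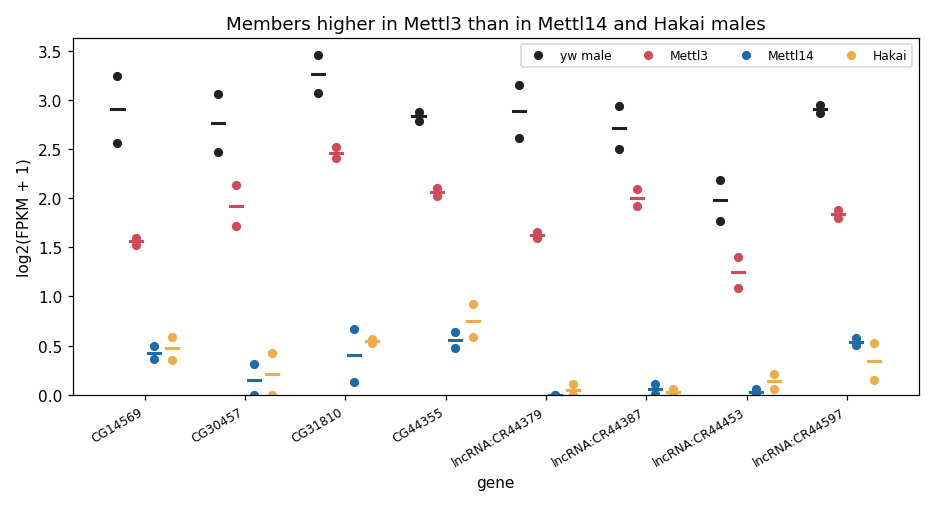
The 8 members that were called higher in Mettl3 males than in both Mettl14 and Hakai males, as log2(FPKM + 1); points are the 2 libraries of each male group and short lines their means. In each gene the Mettl3 points lie above those of Mettl14 and Hakai and below the yw points, the latter being required of the group means by the rule.

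Other members set a different mutant apart. CG10725, annotated with chitin binding, had 9.08 and 12.6 FPKM in yw males, 0.150 and 0.0939 in Mettl3, 2.27 and 3.38 in Mettl14, and 0.194 and 0.395 in Hakai. It was highest in Mettl14 among the mutants, with a log2 difference of -1.76 for Mettl3 minus Mettl14 (SE 0.20; limma, adjusted p = 0.00409) and of -1.55 for Hakai minus Mettl14 (SE 0.20; limma, adjusted p = 0.00814). Lectin-galC1 was lower in Hakai than in either other mutant, with a log2 difference of -1.45 from Mettl3 and -1.32 from Mettl14 (SE 0.11 for each; limma, adjusted p = 0.00121 and 0.00216). It starts 163 kb from Hakai on 2L. CG3513 was also lowest in Hakai, with -1.33 from Mettl3 and -1.49 from Mettl14. The glutathione S-transferase gene GstD5 was lowest in Mettl3, with 17.3 and 33.4 FPKM in yw males, 3.38 and 4.65 in Mettl3, 12.2 and 16.4 in Mettl14, and 11.9 and 11.9 in Hakai. TwdlP, a cuticle protein gene of the Tweedle family, had 5.68 and 6.77 FPKM in yw males, 0.520 and 0.474 in Mettl3, 1.37 and 1.09 in Mettl14, and 2.53 and 2.76 in Hakai. It was higher in Hakai than in Mettl3 by 1.28 (SE 0.12; limma, adjusted p = 0.00226), and asRNA:CR44087 had the same order. CG1942, the counterpart of the triglyceride-forming acyltransferase Dgat2, was higher in Hakai than in Mettl14 by 1.03, with 4.06 and 4.89 FPKM against 1.36 and 2.03. lncRNA:CR43966 was higher in Hakai than in Mettl14 by 1.05, with 3.65 and 3.80 FPKM against 1.304 and 1.271.

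Members called between mutants were also counted by chromosome. On chromosome 2, which carries Mettl14 and Hakai, 7 of 26 members were called higher and 0 lower in Mettl3 than in Mettl14, and 0 higher and 8 lower in Hakai than in Mettl3. Of 5184 genes tested there, 1.91% were called higher and 2.37% lower in Mettl3 than in Mettl14, and 1.77% higher and 3.05% lower in Hakai than in Mettl3. On chromosome 3, which carries Mettl3, the counts among 35 members were 5 higher and 2 lower for Mettl3 against Mettl14, next to 2.03% and 2.50% of 5769 genes tested, and 3 higher and 2 lower for Hakai against Mettl3, next to 1.72% and 2.29%. For Hakai against Mettl14 they were 1 higher and 2 lower on chromosome 2, next to 1.06% and 2.39%, and 1 higher and 1 lower on chromosome 3, next to 1.01% and 1.75%. Within 1 Mb of Mettl14 lay 2 members, lmgA and CR44079, among 246 tested genes. Within 1 Mb of Hakai lay 3 members, Lectin-galC1, CG10721 and lncRNA:CR44740, among 217, and none lay within 1 Mb of Mettl3, where 283 genes were tested.

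Members were in part neighbours. With a gap of at most 50 kb, 21 members fell into 7 runs, 1 of which holds the 5 mitochondrial members, whose genome is shorter than that gap. How often tested genes taken at large form such runs was not measured. CG13068, CG34248, CG13067 and CG4962 lie at 3L:16269392-16295547, where 6 genes were tested. CG3513 and Acp24A4 are adjacent at 2L:3692699-3693905. lncRNA:CR43849, CG31446 and lncRNA:CR45636 lie at 3R:15667978-15698506 among 5 tested genes. Spn53F, CG30457 and lncRNA:CR44387 lie at 2R:17122898-17185595 among 17 tested genes. Unlike CG30457 and lncRNA:CR44387, Spn53F had its lowest mutant mean in Mettl3, without a call in any pair. Of all members, 38 overlapped no other annotated gene, 21 overlapped a gene on the opposite strand only and 12 overlapped one on the same strand, where reads could have been divided between the genes. These 12 included CG31917 (with Tfb5), lncRNA:CRG (with CASK), lncRNA:CR45809 (with Glut1), salt, lmgA and CG42374.

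In yw females most long noncoding and antisense members were close to 0, while most protein-coding members were not. Both female libraries were under 0.5 FPKM in 24 members (19.6% of genes tested), and this held for 18 of the 21 long noncoding and antisense RNAs and 5 of the 43 protein-coding genes. The protein-coding genes were Acp24A4, Spn53F, CG6996, TwdlP and CG44355. Of the 24, 11 were listed at 0 in both female libraries. The share under 0.5 FPKM within each class of genes tested was not measured, so the class counts are not read as a trait of the members. All 2133 genes of the long noncoding RNA class summed to 4090 and 4100 FPKM in yw females and to 7947 and 9878 in yw males. Both female libraries were above all 6 mutant male libraries in 32 members (26.6% of genes tested), of which 27 were protein-coding and 2 were long noncoding or antisense RNAs. CG9246 had 70.2 and 71.1 FPKM in yw females, above the yw males, and CG6283 had 23.9 and 25.9. In 9 members both female libraries exceeded both yw male libraries (37.4%). The rule chose genes that were low in the mutants relative to yw males, so neither count is read against its share of genes tested. The only female libraries of the series are from yw flies, so the levels of these genes in mutant females are not known here.

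**Figure D4:**
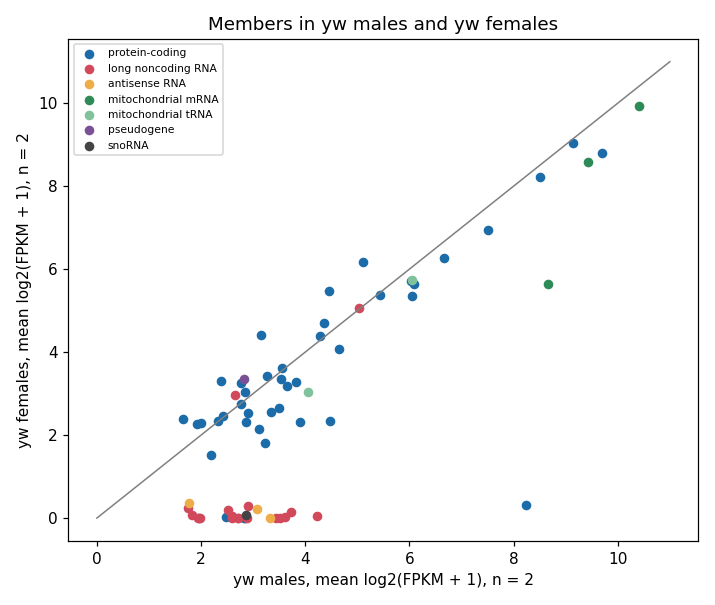
Mean log2(FPKM + 1) of the 71 members in yw males (horizontal) and yw females (vertical), 2 libraries each, coloured by class; the line marks equal values. Most long noncoding and antisense RNAs lie along the bottom, whereas most protein-coding members lie near the line, apart from a few at the bottom that include Acp24A4.

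The share of members with an m6A antibody peak was below that of the genes tested in each of the 5 lists, a difference that was not tested. Each list is a single call by the authors on both replicates of a group, so no list has a replicate check. In the yw male list 35 of 71 members had a peak (49.3%), next to 71.0% of the genes tested, and 25 members had none in any of the 5 lists. Members with a peak numbered 24 in yw females (33.8%, next to 63.9% of genes tested), 34 in Mettl3 (47.9% and 75.5%), 30 in Mettl14 (42.3% and 68.5%) and 27 in Hakai (38.03% and 69.3%). Of the 21 long noncoding and antisense RNAs, 10 had a yw male peak. Long noncoding RNA genes, with CR44079 counted, were 26.8% of the members and 6.52% of the genes tested. Members were also chosen for less RNA in the mutants. The part of either in the shares with a peak was not tested. The 50 entries of members in the yw male list, at 47 distinct positions, were annotated to the 5′ UTR in 9 cases, to the 3′ UTR in 30 and to another exon in 11. Of these, 10 reached beyond the span of the member gene, as did that of Lectin-galC1, which covers 15002 bases and overlaps Pax.

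**Figure D5:**
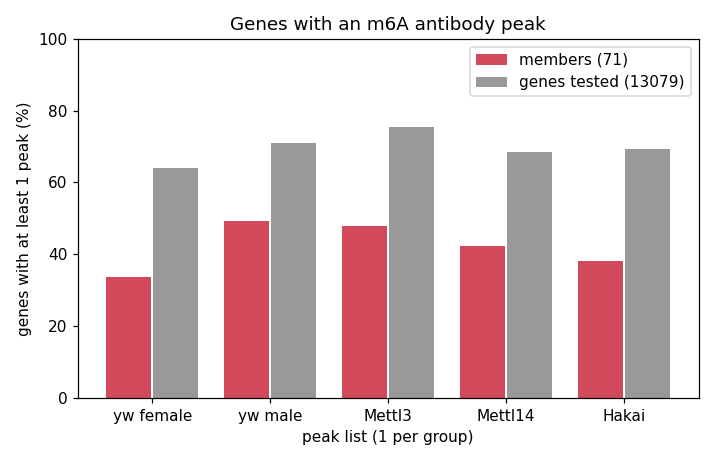
Percent of the 71 members (red) and of the 13079 genes tested (grey) with at least 1 peak in each of the 5 lists, 1 list per group. In every list the share of members is below that of the genes tested, with 49.3% and 71.0% in yw males.

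The strongest fold enrichments (IP over input) were on CG14742, with 47.1 at 3R:12214658-12215076 in the yw male list and 44.7, 39.8 and 23.9 for peaks overlapping it in Hakai, Mettl3 and Mettl14. These mutant peaks reached beyond the span of the gene, which overlaps Cog1 on the opposite strand. RNA of CG14742 had 15.3 and 29.7 FPKM in yw males, 2.52 and 6.63 in Mettl3, 3.40 and 20.1 in Mettl14, and 3.16 and 20.1 in Hakai. Its input libraries thus disagreed within groups. A peak was taken as found in a mutant when it overlapped one there by more than 50% of the smaller. By that rule 8 of the 50 yw male peaks were absent from the Mettl3 list (16%, next to 21.2% of peaks on genes tested), 18 from Mettl14 (36% and 27.1%) and 12 from Hakai (24% and 23.1%). Absent from all mutant lists were 5 (10%, next to 13.04% of peaks on genes tested), and 30 were found in all (60%, next to 65.4%). Klp54D carried a 5′ UTR peak at 2R:17557031-17557268 with a fold enrichment of 5.63 in yw males and 12.9 in yw females, absent from all mutant lists, while its 3′ UTR peak at 2R:17562965-17563406 was found in all of them. In ci, the transcription factor of the Hedgehog pathway, the 5′ UTR peak at 4:55905-56353 had a fold enrichment of 6.45 in yw males, was absent from the Mettl3 and Mettl14 lists and had 1.51 in Hakai. RNA of ci had 15.9 and 12.2 FPKM in yw males, 5.27 and 5.27 in Mettl3, 4.30 and 13.1 in Mettl14, and 4.37 and 11.5 in Hakai. The members had less RNA in the mutants, and its part in the absent peaks was not tested.

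The genes most like the mean profile of the members over the 8 male libraries were resilin (Pearson r = 0.986), CG17109 (r = 0.981), Cpr47Ee (r = 0.981), CG6592 (r = 0.977) and sand (r = 0.972). The points are 8 libraries in 4 groups, so the values describe a likeness of group levels. Resilin, Cpr47Ee and CG6592 met the threshold and were left out of the members by their GO terms, while CG17109 and sand did not meet it. Resilin, which encodes an elastic cuticle protein, had 3.91 and 5.16 FPKM in yw males and 0.607 to 1.03 in the mutants.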

How the data were processed

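Per the study's methods and processing notes, the authors used fastp for trimming, HISAT2 for mapping to the Drosophila melanogaster genome and StringTie for FPKM values of the 10 input libraries, which are deposited on a linear scale. Peaks were called by the authors with exomePeak, using the replicates of a group together, and annotated with ChIPseeker. The deposited fold enrichment is a linear ratio (IP to input), and the deposited FDR is a log10 value. The IP libraries were used through these peak lists only. No file gives read counts, so the depth per library is unknown. Columns named Ime4 were read as Mettl3, an older name.

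Here log2(FPKM + 1) of the 8 male input libraries was fitted with limma 3.58.1 (lmFit and eBayes with trend) in R 4.3.3 for the 13079 genes with a mean of at least 1 FPKM. Fold changes are on this scale, which understates those of genes with low values. A call needed a Benjamini-Hochberg adjusted p under 0.05 over all genes tested and a log2 difference of at least 1. Mutants were tested against each other, and females, peaks and yw comparisons were described. Named, in full or by count, were the members with the highest yw male level, the largest fall, a call between mutants, the strongest peaks, a place on a gene list, a run of neighbours or a value next to the threshold, together with the mutated genes. Members and lists were chosen with earlier results of these data known. Alternatives changed the pseudocount, filter, threshold, scaling, model, overlap and libraries used. The fit was tested on simulated data. Tables were made with Python 3.11.15, pandas 2.3.3 and numpy 2.4.6, and plots with matplotlib 3.10.9. Sequences of the members were not used here.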

Additional observations from a re-analysis of the deposited data

Results flagged for a closer look

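The fall from yw males differed in size between mutants for some members, by the test of the difference itself (limma, adjusted p under the threshold and at least 2-fold). These were 14 members between Mettl3 and Mettl14 (4.02% of genes tested were called), 5 between Hakai and Mettl14 (2.84%) and 13 between Hakai and Mettl3 (3.93%). The rule used the level of each mutant, so these shares are not a like-for-like background.

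Mettl3 minus Mettl14, on the log2(FPKM + 1) scale, was 2.06 for CG31810, 1.95 for lncRNA:CR44387, 1.77 for CG30457, 1.73 for CG17298, 1.62 for lncRNA:CR44379, 1.51 for CG44355, 1.48 for CG31446 and 1.301 for lncRNA:CR44597. It was -1.76 for CG10725 and -1.60 for GstD5.

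Hakai minus Mettl14 was 1.05 for lncRNA:CR43966 and 1.03 for CG1942. It was -1.55 for CG10725, -1.49 for CG3513 and -1.32 for Lectin-galC1.

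Hakai minus Mettl3 was 1.38 for GstD5 and 1.37 for asRNA:CR44087. It was -1.98 for lncRNA:CR44387, -1.92 for CG31810, -1.71 for CG30457, -1.57 for lncRNA:CR44379, -1.501 for lncRNA:CR44597, -1.45 for Lectin-galC1, -1.33 for CG3513 and -1.31 for CG44355. In each of these genes both libraries of one mutant lay on the same side of both libraries of the other.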

How the results depend on the processing

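The rule took 31 genes at a mean FPKM of at least 5, 32 at a threshold of 1 and 129 at a threshold of 0.5, and 62 to 115 when single libraries were left out. The 71 members were all kept with a pseudocount of 0.1, no filter or equal medians. A mean FPKM of at least 5 kept only 31 of the 71 members in the fit. Among these the calls were 3 between Mettl3 and Mettl14, 2 between Hakai and Mettl14 and 3 between Hakai and Mettl3. Between Hakai and Mettl14, all members kept, the calls were 8 with a pseudocount of 0.1 and 3 with only the 4 libraries of the contrast. Leaving out single libraries gave 7 to 14, 3 to 6 and 7 to 13 calls for these pairs, with a lone library assumed to vary like the other groups. Of 358 refits of the 25 genes and pairs listed above, 0 turned the direction and 33 lost the call. With the replicate number as a block the calls were 16, 6 and 14. Deviations of replicates with the same number correlated by 0.46 to 0.67 among yw, Mettl14 and Hakai and by 0.01 to 0.06 with Mettl3, so same-numbered libraries of yw, Mettl14 and Hakai deviated together and those of Mettl3 did not. No label says what a number marks, and the numbers were not taken as pairs because not every correlation was over 0.1. Members with a yw male peak numbered 13 at a fold enrichment of at least 5, and peaks absent from all mutants numbered 10 when at least 50% of both peaks had to overlap (20%, next to 26.6% of peaks on genes tested). Members higher in yw females than in every mutant library numbered 34 to 37 without 1 female library. With 2 libraries per group and unknown depth, levels under about 1 FPKM are imprecise.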
